A study of Rattus norvegicus with 18 samples.

Results

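Transcript levels of 9 genes of the insulin-like growth factor (IGF) system were described in the basolateral amygdala (BLA) of rats that were enriched, removed from enrichment or never enriched. They were the ligands Igf1 and Igf2, the receptors Igf1r and Igf2r, and the binding proteins Igfbp2, Igfbp3, Igfbp4, Igfbp5 and Igfbp6, taken by gene name from a table of 19113 genes. All 9 passed the filter on low values (a mean above 1 over all libraries), as 18172 genes did.

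The tissue came from 18 adult male Sprague-Dawley rats, 6 per group, with 1 polyA RNA library per rat. Enrichment removal (ER) rats had 4 weeks of enrichment and were then housed singly around the clock for 2 weeks. Environmental enrichment (EE) rats shared a large cage of 10 animals with toys and other objects during the dark, active phase and were alone by day. Standard housing (SH) rats were kept alone in ordinary cages throughout. All rats were 8 weeks old on arrival, were of the same strain, and underwent no behavioral test before the BLA was punched from 3 sections per rat. EE and ER rats lived in shared cages, so the spread between rats does not cover a spread between cages.

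IGF-I and IGF-II are small secreted proteins related to insulin. Both bind the IGF-I receptor, a tyrosine kinase that signals through the PI3K-AKT and RAS-ERK cascades, while the IGF-II receptor clears IGF-II from the cell surface and also carries lysosomal enzymes tagged with mannose 6-phosphate. The IGF binding proteins hold the ligands in the extracellular space, prolong their life or keep them from the receptor, and release them when proteases cut the binding protein. In the rodent brain, IGFs are known for growth, survival and plasticity of neurons, and IGF-II for memory in the rat hippocampus.

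Values were reads per gene divided by a library's size factor, written here as normalized reads. They were not divided by transcript length, so levels were compared between rats and not between genes. Recovered totals were 20171558 to 23450276 reads per library in ER, 17753797 to 21931492 in EE and 18688872 to 22177364 in SH. The libraries SH 3 and SH 1 stood apart, with median correlations with the rest of 0.944 (SH 3) and 0.962 (SH 1), where the other 16 libraries had 0.970 to 0.977, and results that turned on them are given with and without them. In bulk tissue, fewer cells of a type and less RNA per cell cannot be told apart. No source used here states the strand setting of the counting, and a member's value could therefore include reads of a gene that overlaps it on the opposite strand.

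The promoters of the receptors and of the neighbouring genes Igfbp2 and Igfbp5 are shown, as pairs whose levels had a positive r from rat to rat. The neighbours were not set apart by this, as other pairs of members, such as Igfbp5 and Igfbp6 (r of 0.49 over 18 libraries), had an r as high. The receptors had an r of 0.74 over all 18 libraries and 0.63 without SH 1 and SH 3. The neighbours had a lower r of 0.46 over all 18 libraries, which 13.7% of all gene pairs reached, and a like one of 0.64 without SH 1 and SH 3. Each is the RefSeq window of 250 bases before and 50 bases after the gene's start in GRCr8, read on the gene's strand, 5′ to 3′. Capitals mark the GC box GGGCGG and the E-box CACGTG, searched on both strands. The windows are chr1:130959747-130960046 (plus strand) for Igf1r, chr1:50526628-50526927 (plus) for Igf2r, chr9:81864561-81864860 (plus) for Igfbp2 and chr9:81914138-81914437 (minus) for Igfbp5.
Igf1r: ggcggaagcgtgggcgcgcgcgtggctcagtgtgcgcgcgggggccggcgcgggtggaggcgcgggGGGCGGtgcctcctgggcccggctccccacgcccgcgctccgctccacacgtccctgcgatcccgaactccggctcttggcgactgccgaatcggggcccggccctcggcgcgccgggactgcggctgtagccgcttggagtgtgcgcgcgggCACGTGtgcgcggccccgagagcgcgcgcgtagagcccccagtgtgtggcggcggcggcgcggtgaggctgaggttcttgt
Igf2r: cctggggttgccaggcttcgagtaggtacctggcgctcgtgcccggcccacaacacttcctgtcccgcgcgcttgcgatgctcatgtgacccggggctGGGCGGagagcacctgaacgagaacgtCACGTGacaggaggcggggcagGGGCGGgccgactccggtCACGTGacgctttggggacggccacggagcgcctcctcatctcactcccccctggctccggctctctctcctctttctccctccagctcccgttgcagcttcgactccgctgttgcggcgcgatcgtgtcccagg
Igfbp2: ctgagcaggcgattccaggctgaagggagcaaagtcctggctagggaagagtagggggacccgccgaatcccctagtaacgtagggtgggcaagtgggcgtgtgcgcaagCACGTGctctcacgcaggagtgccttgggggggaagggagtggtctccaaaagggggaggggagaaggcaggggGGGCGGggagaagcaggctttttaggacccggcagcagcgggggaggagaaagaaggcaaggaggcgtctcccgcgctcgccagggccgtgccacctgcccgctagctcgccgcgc
Igfbp5: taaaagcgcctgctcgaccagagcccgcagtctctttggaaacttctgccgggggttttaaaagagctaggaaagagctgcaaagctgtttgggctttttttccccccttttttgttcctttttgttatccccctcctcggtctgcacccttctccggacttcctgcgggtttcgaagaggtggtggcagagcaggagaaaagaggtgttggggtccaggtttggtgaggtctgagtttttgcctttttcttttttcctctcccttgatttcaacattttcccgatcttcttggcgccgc

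The Igf1r window was the richest in CpG of the members, with 50 CpG dinucleotides and 78.0% G or C, which placed it at percentile 99.4 of 33465 rat promoter windows by CpG count. The Igf2r window held 30 CpG (percentile 90.7) and was 68.0% G or C. It had 2 GC boxes and 2 E-boxes, and the Igf1r window had 1 of each. Igfbp2, with 20 CpG and 66.7% G or C, also had 1 GC box and 1 E-box, whereas Igfbp5, with 11 CpG and 50.7% G or C, had no match to either. A GC box was present in 33.1% of all windows and the E-box in 6.42%, and the median window had 7 CpG and 51.7% G or C. These matches describe the letters of the windows only. In RefSeq no annotated gene lay between Igfbp2 and Igfbp5 on chromosome 9, where they are read from opposite strands. No other 2 of the 9 genes were neighbours.

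None of the 9 genes differed between housing groups beyond the spread between rats. In the limma fit with Benjamini-Hochberg adjustment over 18172 genes, 0 of 9 passed an adjusted p of 0.05 in ERvEE, ERvSH or EEvSH, where 0% of all genes were called. The lowest adjusted p of any member was 1 in ERvEE, 0.617 in ERvSH and 0.749 in EEvSH. At an unadjusted p under 0.05 the members again gave 0 of 9 in each contrast, beside 3.66% of all genes in ERvEE, 7.89% in ERvSH and 5.87% in EEvSH. Groups did not separate completely for any member, while 0.215% of all genes had groups that did not overlap in ERvEE, 0.292% in ERvSH and 0.171% in EEvSH. Among all genes, edgeR's quasi-likelihood test on the recovered reads also called 0 in each contrast, and DESeq2 called 2 in ERvEE, 2 in ERvSH and 1 in EEvSH, none of them a member.

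Fold changes were of mixed sign. They ran from -0.79 (Igfbp6 in ERvEE) to 0.46 (Igf1r in EEvSH) on the log2 scale, where the median size over all genes was 0.11 in ERvEE, 0.16 in ERvSH and 0.15 in EEvSH. In ERvEE, 3 members were positive and 6 negative, with a median log2 fold change of -0.069 beside 0.0030 over all genes, of which 50.9% were positive. In ERvSH, 6 were positive and 3 negative, with a median of 0.11 beside 0.010 over all genes, of which 51.8% were positive. In EEvSH, 8 were positive and only Igf1 was negative, with a median of 0.10 beside 0.018 over all genes, of which 53.7% were positive. The contrasts share groups, so these counts are not independent of each other. Without SH 1 and SH 3 the counts were 3 positive and 6 negative in ERvEE, 5 and 4 in ERvSH and 7 and 2 in EEvSH.

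**Figure D1:**
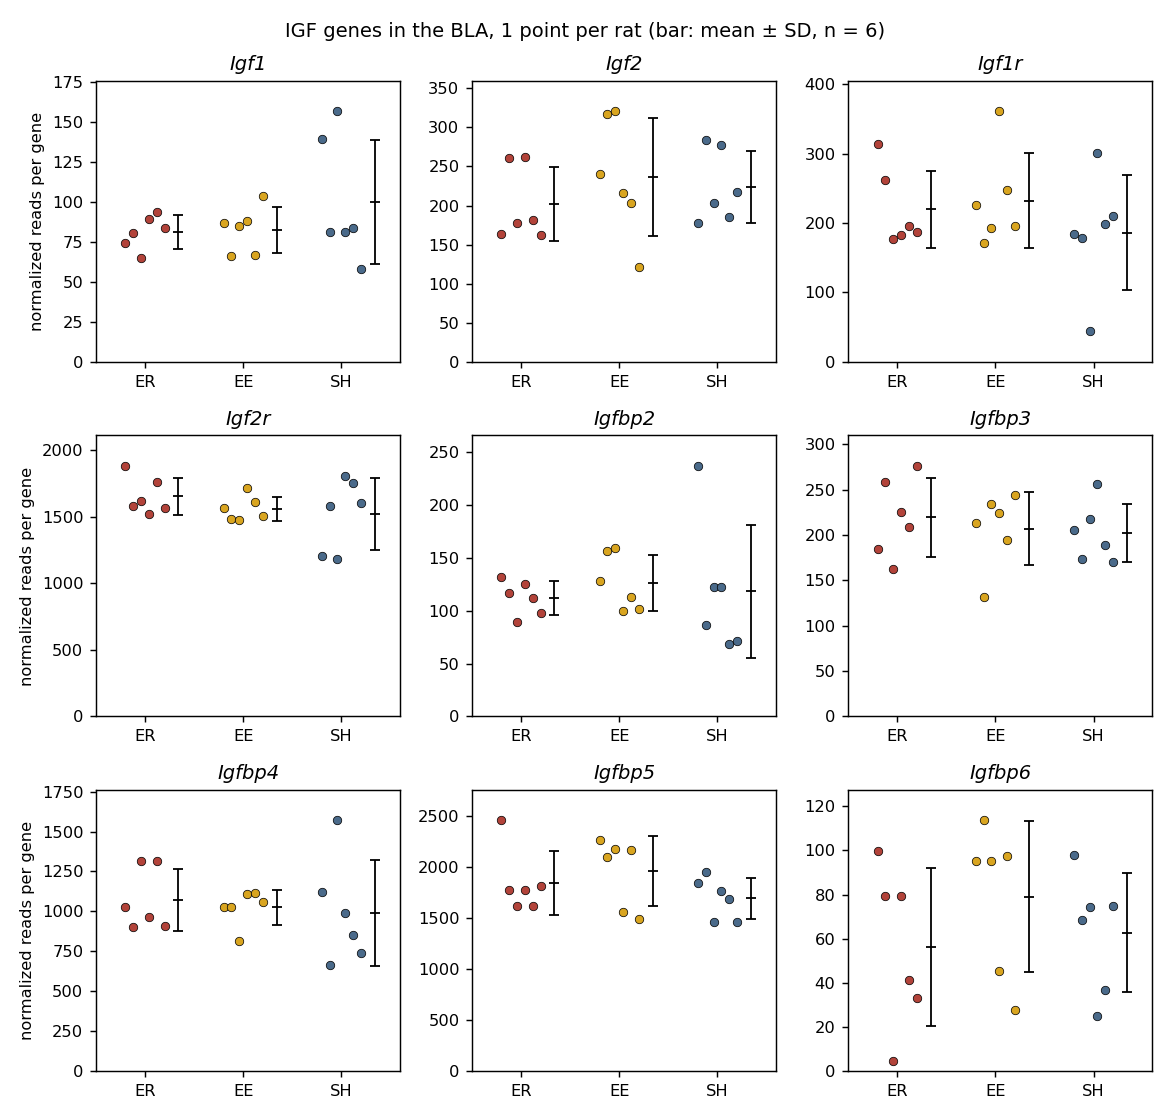
Normalized reads (vertical axis, from 0) of each of the 9 genes, with 1 point per rat in ER, EE and SH and a bar for the mean ± SD (n = 6 per group). The groups overlap in every panel, and single rats stand apart for Igf1r (SH 3, 45.1), Igfbp2 (SH 1, 237) and Igfbp6 (ER 3, 4.47).

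Igf1 encodes IGF-I, which in the brain is made by neurons and microglia among other cells. It ranged between 64.8 and 94.1 normalized reads in ER rats (median 82.1), between 66.0 and 104 in EE rats (median 86.1) and between 57.98 and 157 in SH rats (median 82.6). The medians lay close together, and the SH spread came from SH 3 at 157 and SH 1 at 140, which were above all other rats. Log2 fold changes were -0.022 in ERvEE (SE 0.21, 95% interval -0.46 to 0.42), -0.23 in ERvSH (-0.67 to 0.21) and -0.20 in EEvSH (-0.65 to 0.24). The sign turned when SH 1 and SH 3 were left out, to 0.095 in ERvSH and 0.12 in EEvSH, so the lower Igf1 in ER and EE than in SH rested on those libraries.

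Igf2 encodes IGF-II, in the adult rodent brain made mostly in the meninges and choroid plexus. ER rats had 163 to 263 normalized reads (median 180), EE rats 122 to 321 (median 228) and SH rats 177 to 283 (median 210). EE rats spanned the whole range of the data, with EE 6 the lowest and EE 3 the highest of all 18. In log2 fold change, Igf2 was at -0.19 in ERvEE (SE 0.21, 95% interval -0.63 to 0.25), -0.16 in ERvSH (-0.59 to 0.28) and 0.034 in EEvSH (-0.40 to 0.47). The ERvEE interval spans a fold of 0.647 to 1.19, and the size of change that 6 rats per group could detect was not tested.

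Igf1r encodes the signalling receptor. Its level was 178 to 314 normalized reads in ER rats (median 191), 171 to 361 in EE rats (median 211) and 45.1 to 301 in SH rats (median 191). The low end of SH was a single library, SH 3, with 42 reads, while the next lowest of all 18, EE 2, was at 171. The log2 fold change was -0.069 in ERvEE (SE 0.32, 95% interval -0.74 to 0.60), 0.39 in ERvSH (-0.27 to 1.06) and 0.46 in EEvSH (-0.21 to 1.13). These last contrasts held the largest positive changes among the members, and without SH 3 they came to 0.028 in ERvSH and 0.096 in EEvSH.

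Igf2r encodes the scavenging receptor and had the smallest spread between rats of the 9 members. It had 1520.0 to 1886 normalized reads in ER rats (median 1603), 1475 to 1717 in EE rats (median 1535) and 1182 to 1806 in SH rats (median 1591). Again SH 3 (1182) and SH 1 (1207) were the lowest of all 18, and the other rats lay within a narrow band. For Igf2r the log2 fold change was 0.084 in ERvEE (SE 0.098, 95% interval -0.12 to 0.29), 0.14 in ERvSH (-0.067 to 0.34) and 0.053 in EEvSH (-0.15 to 0.26). As folds, the unadjusted 95% intervals were 0.920 to 1.22 in ERvEE, 0.955 to 1.27 in ERvSH and 0.901 to 1.20 in EEvSH. Without SH 1 and SH 3 the value was -0.027 in ERvSH and -0.11 in EEvSH.

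**Figure D2:**
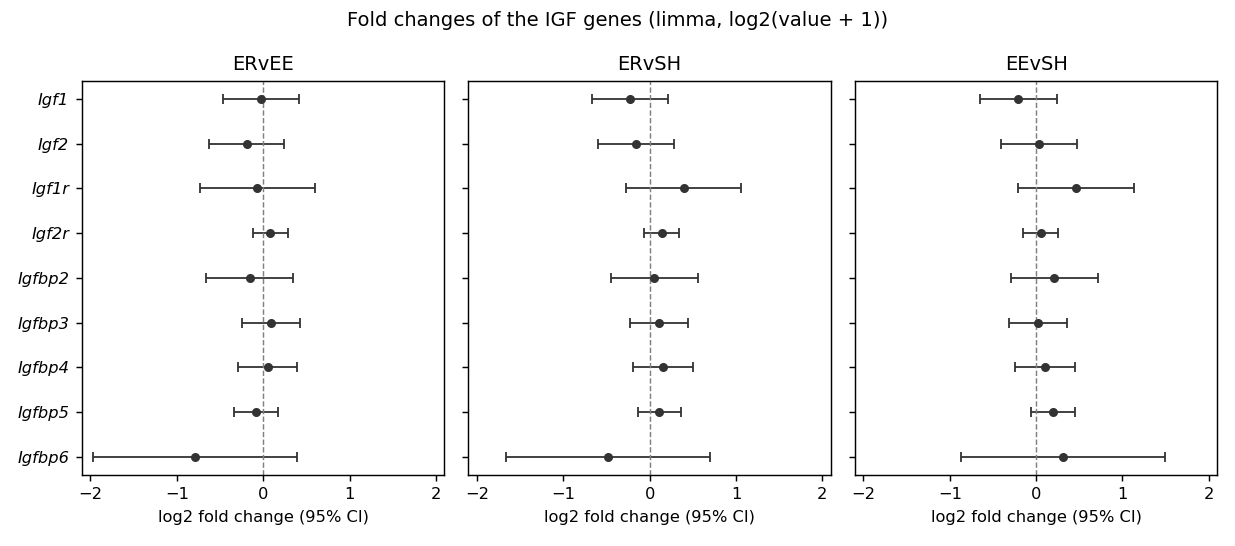
Log2 fold change on the log2(value + 1) scale (horizontal axis) with its 95% interval from limma, for the 9 genes in ERvEE, ERvSH and EEvSH. All 27 intervals include 0, and they are narrowest for Igf2r and widest for Igfbp6.

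Igfbp2 encodes a binding protein abundant in brain and cerebrospinal fluid that also binds integrins. Levels were 89.3 to 132 normalized reads in ER rats (median 114), 99.4 to 159 in EE rats (median 121) and 68.4 to 237 in SH rats (median 105). One rat, SH 1, lay far above all others, and the next highest of all 18 was EE 3 at 159. The log2 fold change was -0.16 in ERvEE (SE 0.24, 95% interval -0.66 to 0.35), 0.051 in ERvSH (-0.45 to 0.55) and 0.21 in EEvSH (-0.30 to 0.71). With SH 1 and SH 3 left out it was 0.38 in ERvSH (unadjusted p of 0.0576, adjusted p of 0.776 in limma) and 0.54 in EEvSH (unadjusted p of 0.0101, adjusted p of 0.461 in limma). In that fit 6.45% of all genes in ERvSH and 8.35% in EEvSH had an unadjusted p under 0.05.

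Igfbp3, the main carrier of IGFs in blood, was at 163 to 277 normalized reads in ER rats (median 217), 132 to 244 in EE rats (median 218) and 171 to 257 in SH rats (median 197). No group stood out. Log2 fold changes of Igfbp3 were 0.088 in ERvEE (SE 0.16, 95% interval -0.25 to 0.42), 0.11 in ERvSH (-0.23 to 0.45) and 0.021 in EEvSH (-0.32 to 0.36).

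Igfbp4 encodes a binding protein that is cut by the protease pappalysin when IGF is bound. It was at 904 to 1318 normalized reads in ER rats (median 995), 814 to 1114 in EE rats (median 1045) and 666 to 1572 in SH rats (median 921). The SH rats thus surrounded both other groups, with SH 3 the highest of all 18. For Igfbp4 the log2 fold change was 0.052 in ERvEE (SE 0.16, 95% interval -0.29 to 0.40), 0.16 in ERvSH (-0.19 to 0.50) and 0.10 in EEvSH (-0.24 to 0.45). Without SH 1 and SH 3 it was 0.40 in ERvSH (unadjusted p of 0.00501, adjusted p of 0.689 in limma) and 0.35 in EEvSH (unadjusted p of 0.0126, adjusted p of 0.475 in limma).

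Igfbp5 encodes a binding protein that also attaches to extracellular matrix. Its range was 1614 to 2458 normalized reads in ER rats (median 1773), 1484 to 2259 in EE rats (median 2132) and 1457 to 1948 in SH rats (median 1725). Of the EE rats, 4 were above every SH rat and the other two, EE 4 at 1558 and EE 6 at 1484, lay in the lower part of the SH range. In ER, 5 rats fell within 1614 to 1809 and ER 1 stood at 2458. The log2 fold change was -0.084 in ERvEE (SE 0.12, 95% interval -0.34 to 0.17), 0.11 in ERvSH (-0.14 to 0.37) and 0.20 in EEvSH (-0.055 to 0.45). In the fit of all 18 libraries the EEvSH value had the smallest p of any member and contrast, at an unadjusted p of 0.119 and an adjusted p of 0.749 in limma. Leaving out single rats gave 0.15 (without EE 1) to 0.27 (without EE 6). The unadjusted p in limma was 0.0302 without EE 6 (adjusted p of 0.661) and 0.0468 without EE 4 (adjusted p of 0.815), the lowest EE rats. Without EE 1 it was 0.242, and leaving out any other single rat also gave an unadjusted p above 0.05. In the fits without EE 6 and without EE 4, 1359 and 958 of 18172 genes had an unadjusted p under 0.05.

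Igfbp6 encodes a binding protein that prefers IGF-II over IGF-I. It had 4.47 to 99.7 normalized reads in ER rats (median 60.4), 27.8 to 114 in EE rats (median 95.2) and 24.8 to 97.9 in SH rats (median 71.3). Every group held both low and high rats. Of the EE rats, 4 were at 95.1 or more, while EE 4 was at 45.3 and EE 6 at 27.8. The log2 fold change was -0.79 in ERvEE (SE 0.57, 95% interval -1.97 to 0.39), -0.48 in ERvSH (-1.66 to 0.70) and 0.31 in EEvSH (-0.87 to 1.496). The ERvEE and ERvSH values turned on ER 3, with only 4 reads, and without that library they were -0.21 in ERvEE and 0.11 in ERvSH.

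The members also differed in how far rats of the same group lay apart. The coefficient of variation within groups, averaged over ER, EE and SH, was 49.95% for Igfbp6, 33.0% for Igf1r, 29.6% for Igfbp2, 25.3% for Igf2, 23.0% for Igf1, 20.7% for Igfbp4, 18.4% for Igfbp3, 15.5% for Igfbp5 and 10.6% for Igf2r. Low reads vary more by counting alone, so each was set beside genes at a like level, as a description. Igfbp6 was at percentile 96.9 of such genes, Igf1r at 95.5, Igfbp4 at 90.2, Igf2 at 86.6, Igfbp2 at 83.6 and Igfbp5 at 82.7, while Igfbp3 at 57.3, Igf2r at 56.2 and Igf1 at 40.2 were near the middle. From the lowest to the highest rat, Igfbp6 spanned a fold of 25.5 and Igf1r a fold of 7.998, against 1.60 for Igf2r. Both wide ranges rested on a single library, and Igfbp6 spanned a fold of 4.58 without ER 3 and Igf1r a fold of 2.12 without SH 3.

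**Figure D3:**
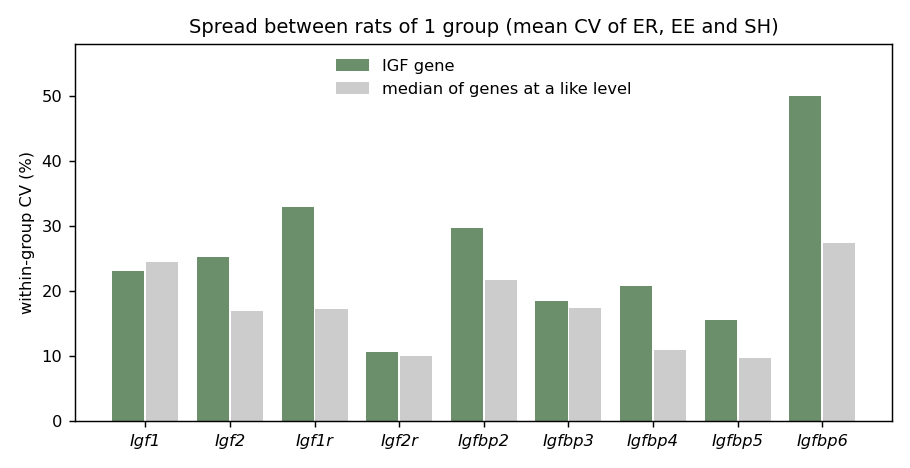
Coefficient of variation within groups in percent (vertical axis, from 0), averaged over ER, EE and SH, for each gene (green) and for the median of genes at a like mean level (grey). Igfbp6 and Igf1r lie furthest above their grey bars, at 49.95% and 33.0%, and Igf1 is just under its own.

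Pairs of members differed in how closely they went together. Across the 18 libraries Igf1r and Igf2r had a Pearson r of 0.74, and 0.74 after group means were removed, a level that 2.92% of all pairs of 15211 genes reached. Over the 16 libraries without SH 1 and SH 3 their r was 0.63, reached by 1.77% of gene pairs. Igfbp2 and Igfbp5, the neighbours on chromosome 9, had an r of 0.46 over all libraries, which 13.7% of gene pairs reached, and 0.64 without SH 1 and SH 3, which 1.51% reached. Igfbp5 and Igfbp6 had 0.49 over all libraries (reached by 11.7% of gene pairs) and 0.57 without those libraries (3.01%). Igf1 and Igfbp3 had 0.43 over all libraries (15.3%) and 0.66 without those libraries (1.31%). The negative relations of Igf1 with Igf2r (r of -0.67) and with Igf1r (r of -0.56) rested on SH 1 and SH 3, without which they were -0.014 and 0.048. In those 16 libraries the r of a ligand with a receptor lay between -0.29 and 0.048. These values are descriptions over libraries that share preparation and normalization.

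**Figure D4:**
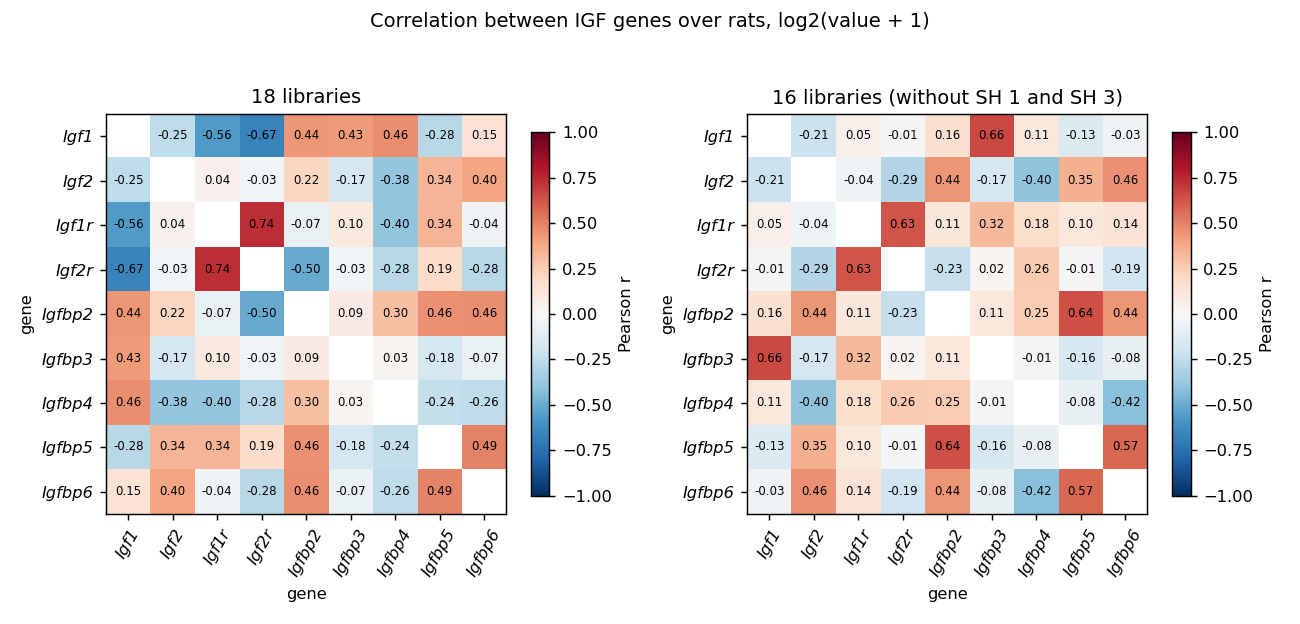
Pearson r of log2(value + 1) between the 9 genes, over 18 libraries (left) and over 16 libraries without SH 1 and SH 3 (right), with red for positive and blue for negative r. The red square of Igf1r with Igf2r stays (0.74 and 0.63), and the blue squares of Igf1 with both receptors fade (to 0.05 and -0.01).

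The genes whose pattern over the 18 libraries was most like each member's differed from member to member (15211 genes with a mean of 10 or more were searched). For Igfbp4 they were genes of neurons, namely Cplx1 (complexin, a regulator of synaptic vesicle release) with an r of 0.94, Nefm (a neurofilament subunit) with 0.92 and Calb1 (the calcium buffer calbindin) with 0.92, and r was 0.91 or more for each without SH 1 and SH 3. Igf2 was most like Medag at 0.82, Mc4r (the melanocortin-4 receptor) at 0.78 and Nrg2 (a neuregulin) at 0.75. Igf1r was most like AABR07039210.1 at 0.95, Tmod2 (a neuronal tropomodulin) at 0.95 and Ptbp3 (a splicing regulator) at 0.94, and Igf2r was most like AABR07047789.1 at 0.93, Ice1 at 0.91 and Trank1 at 0.91. For Igf1, Kdelr1, a receptor that returns proteins to the endoplasmic reticulum, came first with 0.90, then Dnajc15 with 0.89 and Zc3hc1 with 0.88, and these were 0.67, 0.65 and 0.62 without SH 1 and SH 3.

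Among the other binding proteins, Igfbp2 was most like Tmeff2 at 0.88, RGD1309748 at 0.83 and Chmp7 at 0.83. Igfbp3 was most like Atp2a3 (a calcium pump of the endoplasmic reticulum) at 0.82, Snd1 at 0.74 and Ints5 at 0.72. Igfbp5 was most like Ankrd6 at 0.87, Brinp3 at 0.86 and Rps6kc1 at 0.86, and Igfbp6 was most like Slc22a18 at 0.87, Mad2l2 at 0.82 and Cd82 (a tetraspanin) at 0.82. The median gene's best partner had an r of 0.87, so values of this size are ordinary in these 18 libraries. Igf2 and Igfbp3, at percentiles 27.7 and 28.2 of genes by their best r, had the weakest partners of the members.

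Several members moved with summed markers of cell types that the punch could hold. Igf2 had an r of 0.66 with the summed fibroblast markers (0.69 without SH 1 and SH 3), a list in which 15 of 15 genes were in the table. It also had 0.55 with astrocyte, 0.52 with oligodendrocyte and 0.51 with microglia markers (0.57, 0.55 and 0.63 without those libraries). The fibroblast sum ran from 941 to 1492 normalized reads in ER, 945 to 1701 in EE and 1071 to 1684 in SH. Of the choroid plexus markers 8 of 12 were in the table, with sums of 62.9 to 119 in ER, 36.5 to 158 in EE and 54.2 to 132 in SH, and its defining marker Ttr was listed at 0 in 8 libraries with a median of 1.08. The r of Igf2 with that sum was 0.15. Of the fibroblast markers, Col1a2 was listed at 0 in 9 libraries and Slc47a1 in 8. The part of these cell types in the Igf2 values was not tested.

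Igfbp6 had an r of 0.75 with the summed microglia markers (12 of 12 in the table) and 0.64 with the oligodendrocyte markers (10 of 10), and Igfbp5 had 0.63 and 0.66. Igfbp6 also had 0.58 with fibroblast markers, and Igfbp5 had 0.55 with endothelial markers. With BLA excitatory neuron markers r was -0.53 for Igfbp6 and -0.50 for Igfbp5 (-0.50 and -0.65 without SH 1 and SH 3). The share of all genes with such an r was not computed for any marker list. Microglia sums were 7038 to 9976 in ER, 7221 to 12198 in EE and 8164 to 11377 in SH, and oligodendrocyte sums 76971 to 117576 in ER, 75378 to 181160 in EE and 79422 to 129894 in SH. All 10 oligodendrocyte markers had a negative log2 fold change in ERvEE (median -0.36, 2 at an unadjusted p under 0.05) and a positive one in EEvSH (median 0.35, 4 at an unadjusted p under 0.05), and 0 passed the adjusted threshold in either. Only EE 1 (181160) and EE 5 (162099) had an oligodendrocyte sum above every SH rat, and the other EE rats were at 128778 or less. Both contrasts use the same EE rats, and markers of 1 cell type can vary together, so these signs are not independent of each other. Of the microglia markers 11 of 12 were negative in ERvEE (median -0.22, 2 at an unadjusted p under 0.05). In EEvSH 8 of 12 were positive (median 0.10), and 3 had an unadjusted p under 0.05, 2 of them higher and 1 lower. The sum of the astrocyte markers had an r of 0.63 with Igfbp5 and 0.46 with Igfbp6. Of these markers 8 of 10 were negative in ERvEE (median -0.10) and 6 of 10 positive in EEvSH (median 0.055). At an unadjusted p under 0.05 there were 2 in ERvEE and 0 in EEvSH. Of all genes, 50.9% were positive in ERvEE and 53.7% in EEvSH. An unadjusted p under 0.05 in limma was reached by 3.66% of all genes in ERvEE and 5.87% in EEvSH. Igfbp5 and Igfbp6 were negative in ERvEE and positive in EEvSH, and so were Igf2, Igf1r and Igfbp2. Any gene with its highest mean in EE has these signs. The EEvSH value of Igf2 (0.034) and the ERvEE value of Igf1r (-0.069) changed sign when single rats were left out. The Igfbp6 value in ERvEE was -0.79, and -0.21 without ER 3. The part of the listed cell types in the Igfbp5 and Igfbp6 values was not tested.

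Igfbp4 ran against the mural cell markers (10 of 10 in the table, r of -0.67), the fibroblast markers (r of -0.64, and -0.82 without SH 1 and SH 3) and the striatal neuron markers (10 of 10, r of -0.60). Mural sums were 3564 to 6045 in ER, 3850 to 5383 in EE and 2971 to 5244 in SH, and striatal sums 7974 to 14165 in ER, 9708 to 14215 in EE and 8250 to 15765 in SH. The groups overlapped in each sum. Markers of BLA excitatory neurons, 10 of 10 in the table, summed to 82880 to 94028 in ER, 65920 to 100046 in EE and 70778 to 89613 in SH. The part of the position of the punch in the Igfbp4 values was not tested.

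**Figure D5:**
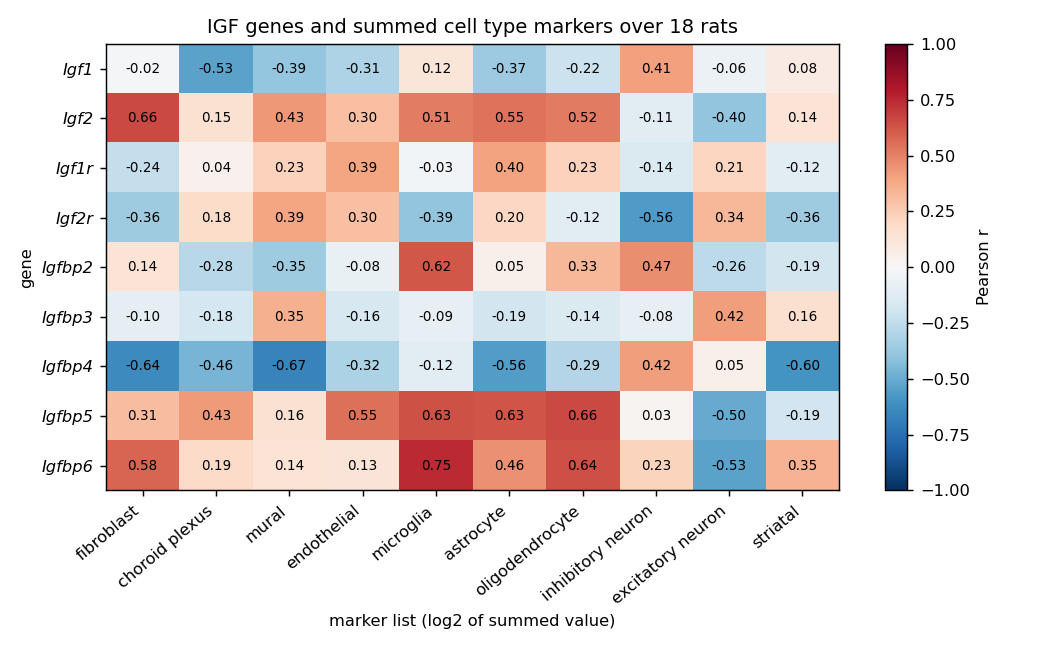
Pearson r over 18 libraries between each gene's log2(value + 1) and the log2 of the summed markers of 10 cell types, red for positive and blue for negative r. The strongest red square is Igfbp6 with microglia (0.75) and the strongest blue one Igfbp4 with mural cells (-0.67).

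Other genes of the axis were listed as further binding proteins, proteases that cut them, inhibitors of those proteases, the insulin receptor and RNA-binding proteins of Igf2 mRNA. Of 21 listed, 16 were tested and 0 passed the adjusted threshold in any contrast, with medians of -0.018 in ERvEE, 0.043 in ERvSH and -0.017 in EEvSH. At an unadjusted p under 0.05 there was 1 of 16 in ERvEE, 3 in ERvSH and 0 in EEvSH, beside 3.66%, 7.89% and 5.87% of all genes. The ERvEE gene was Igf2bp2, an RNA-binding protein of Igf2 mRNA, at 9.503 to 22.5 normalized reads in ER rats (median 14.7) against 16.4 to 36.1 in EE rats (median 27.0), with a log2 fold change of -0.75 (SE 0.29, unadjusted p of 0.0163, adjusted p of 1 in limma). Its groups overlapped.

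In ERvSH, the metalloproteases Adamts1 and Adam9 had log2 fold changes of 0.51 (SE 0.20, unadjusted p of 0.0221) and 0.27 (SE 0.11, unadjusted p of 0.0239), and the binding protein-like gene Igfbpl1 had -0.85 (SE 0.37, unadjusted p of 0.0352). Each had an adjusted p of 0.567 in limma. Adamts1 was at 108 to 195 normalized reads in ER rats (median 133) against 68.7 to 145 in SH rats (median 92.5), and Igfbpl1 at 12.4 to 55.1 in ER rats (median 15.0) against 14.2 to 61.3 in SH rats (median 39.9). Adam9 was at 1050 to 1264 in ER rats (median 1127) against 622 to 1122 in SH rats (median 1003), and all of these groups overlapped. The extreme SH rat was SH 3 for Adam9 (lowest) and Igfbpl1 (highest) and SH 1 for Adamts1 (lowest). Without both libraries the ERvSH values were 0.32 for Adamts1, 0.10 for Adam9 and -0.69 for Igfbpl1, with unadjusted p of 0.131, 0.129 and 0.109 in limma.

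The protease gene Pappa2, whose product cuts IGFBP3 and IGFBP5, was at 314 to 894 normalized reads in ER rats (median 548), 204 to 1472 in EE rats (median 869) and 109 to 820.4 in SH rats (median 580). EE 1 was the highest and SH 3 the lowest of all 18 in Pappa2. Its log2 fold change was -0.51 in ERvEE (SE 0.46, unadjusted p of 0.28), 0.20 in ERvSH (unadjusted p of 0.666) and 0.71 in EEvSH (unadjusted p of 0.137) in limma, and without SH 1 and SH 3 it was -0.16 in ERvSH and 0.35 in EEvSH. The insulin receptor gene Insr, like Igf1r, was lowest in SH 3 at 361, and ran from 716 to 988 in ER rats (median 766), 738 to 843 in EE rats (median 819) and 361 to 900.3 in SH rats (median 774).

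Genes downstream of the IGF-I receptor showed no call either. Of 39 listed genes of the PI3K-AKT and RAS-ERK cascades, 38 were tested and 0 passed the adjusted threshold. In ERvEE 23 of 38 were positive (median 0.022), in ERvSH 28 (median 0.11) and in EEvSH 27 (median 0.095), beside 50.9%, 51.8% and 53.7% of all genes in the same order. At an unadjusted p under 0.05 there were 0 of 38 in ERvEE, 3 in ERvSH and 4 in EEvSH, beside 3.66%, 7.89% and 5.87% of all genes. In ERvSH the S6 kinase gene Rps6kb2 had a log2 fold change of -0.20, with an adjusted p of 0.567 in limma. In EEvSH they were Rps6kb2 (-0.24), Akt2 (0.35), the PI3K regulatory subunit gene Pik3r3 (0.45) and the MEK1 gene Map2k1 (-0.17), each with an adjusted p of 0.749 in limma. Without SH 1 and SH 3 the EEvSH values were -0.24 for Rps6kb2, 0.13 for Akt2, 0.14 for Pik3r3 and -0.10 for Map2k1. In that limma fit the unadjusted p was 0.00437 for Rps6kb2 (adjusted p of 0.421) and 0.113 to 0.214 for the other named genes. Other genes of the list, not named here, also had an unadjusted p under 0.05 in it, as 8.35% of all genes did. Fewer of the 38 genes were positive in ERvSH and in EEvSH without those libraries. The positive counts in these contrasts thus rested partly on them.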

How the data were processed

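RNA from BLA micropunches of 18 rats was sequenced as single-end reads of 50 bases from polyA libraries. Per the labels and methods, the authors aligned the reads with HISAT2 and normalized them with DESeq2. No version, build, annotation or counter is given in the sources used here. The deposited values are a signal, namely read counts per gene divided by a size factor. A read was worth a fixed step in each library, from which whole reads were recovered within 0.01 reads for 100% of values up to 1000 reads.

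The 3 contrasts (ERvEE, ERvSH, EEvSH) were fitted in 1 limma 3.58.1 model (R 4.3.3, eBayes with trend) on log2(value + 1) over 18172 genes with a mean above 1, with Benjamini-Hochberg adjustment and a threshold of 0.05. Fold changes on this scale understate the change of low genes. Groups came from the labels. Alternatives were edgeR 4.0.16 and DESeq2 1.42.0 on recovered reads, scaling, filters, pseudocounts of 0.1 and 5, a replicate block and leaving out libraries. The fit was tested on simulated data. Named were all 9 genes, for each of the other IGF lists up to 4 genes with the smallest p, here those under 0.05 and Pappa2 and Insr, added after their values were seen, and the 3 genes most alike each member. The members and lists were chosen with earlier results of these data known. List genes with no values here were not analysed here. The fit of the listed genes without SH 1 and SH 3 was chosen after seeing the data. Some genes of the signalling list are counted but not reported here by name. No 2 libraries held the same values.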

Additional observations from a re-analysis of the deposited data

Results flagged for a closer look

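In 27 groups of 6 rats (9 genes in 3 housing groups), 3 had a single rat separated from the rest by more of the group's range than Dixon's 95% critical value of 0.625. Chance flags about 5% of such groups. Igfbp5 in ER 1 was at 2458 normalized reads against 1809 in the nearest ER rat, a ratio of 0.769. Igfbp4 in EE 3 was at 814 against 1028 in the nearest EE rat, a ratio of 0.715. Igfbp2 in SH 1 was at 237 against 123 in the nearest SH rat, a ratio of 0.677.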

How the results depend on the processing

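Of 837 values of the members (27 results under 31 alternatives), 0 had an adjusted p under 0.05 and the lowest was 0.38. In 14 of the 27 results the sign never changed. Without SH 1 and SH 3, EEvSH turned for Igf1 (0.12), Igf2 (-0.073) and Igf2r (-0.11), and ERvSH for Igf1 (0.095), Igf1r (-0.020) and Igf2r (-0.027). ERvSH of Igfbp2 was -0.081 in edgeR, -0.086 in DESeq2 and -0.081 in edgeR without EE 3, an alternative chosen after seeing the data, under which EEvSH was -0.032 for Igf2 and -0.012 for Igfbp3. Leaving out single rats gave a range through 0 for EEvSH of Igf2 (-0.067 to 0.21), Igf2r (-0.016 to 0.11) and Igfbp3 (-0.032 to 0.14), for ERvSH of Igfbp2 (-0.078 to 0.28) and Igfbp6 (-0.73 to 0.11), and for ERvEE of Igf1 (-0.083 to 0.047), Igf1r (-0.18 to 0.067), Igfbp3 (-0.035 to 0.17) and Igfbp4 (-0.013 to 0.098). The cause was not tested. Over all genes, DESeq2 called 2 in ERvEE, 2 in ERvSH and 1 in EEvSH, and leaving out single rats called 0 to 1 in ERvEE and 0 to 0 in ERvSH and EEvSH. Same-numbered libraries correlated at -0.083 to 0.13 in their deviations from group means. Whether the numbers pair the rats was not tested. A replicate block called 0 genes in each contrast and turned no member's sign. The intervals, from 6 rats per group, were widest for Igfbp6, and the smallest detectable change of a member was not tested.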
